A study of Mus musculus with 10 samples.

Results

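The MYC and MAX network was examined in B-cell progenitors sorted by how much they had divided. Its 10 members were Myc, Mycn, Max, Mxd1, Mxd3, Mxd4, Mxi1, Mnt, Mga and Mlx, taken as the rows of the count table whose Ensembl identifiers carry these symbols, out of 55573 genes in the table. All 10 were found once, and all 10 passed the filter on low counts. RNA sequencing covered 10 libraries of mouse bone marrow B cells, 5 labelled GFP high and quiescent and 5 labelled GFP low and proliferating. Every mouse carried PAX5-ELN, a leukemia-associated fusion of a B-lineage transcription factor with elastin, together with H2B-GFP, a fluorescent histone that is diluted at each division. Doxycycline was the treatment and 35 days the time in both groups, so neither group is a wild type or untreated control. The promoter that drives each transgene, the strain and the age are not given in the sources used here. Whether each library came from an animal of its own is not stated in the labels, and the p-values cover only the spread among these samples.

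MYC and MYCN are transcription factors that promote growth and division, and they bind DNA only when paired with MAX. MXD1, MXI1, MXD3, MXD4 and MNT pair with the same MAX and recruit the SIN3 corepressor, so they oppose MYC at the DNA sequence CACGTG, called the E-box. MGA also pairs with MAX and sits in a Polycomb complex, while MLX pairs with the glucose-responsive factors MLXIP (MondoA) and MLXIPL (ChREBP). In lymphoid progenitors MYC is known for driving cell growth, and MXD genes are known as genes of cells that leave the cycle, with MXD3 the exception that is known from cycling cells.

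RefSeq promoters, reaching from 250 bases before to 50 after each start on GRCm38.p6, were available for 9 of the 10 members (11 promoters, 3 of them of Mxi1), all but Myc. CACGTG, which reads the same on either strand, was present in 4 of the 11, those of Max, Mlx, Mnt and Mxd4, against 7.15% of 32851 promoters of this length. The stretches around these matches are shown because they carry the sequence the network itself binds, with the E-box in capitals. They run 5′ to 3′ on the strand of the gene, at chr12:76962236-76962261 (minus) for Max, chr11:101087210-101087276 (plus) for Mlx, chr11:74830761-74830846 (plus) for Mnt and chr5:34187884-34187960 (minus) for Mxd4.
Max: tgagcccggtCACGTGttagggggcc
Mlx: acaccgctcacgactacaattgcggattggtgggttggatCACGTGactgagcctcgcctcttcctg
Mnt: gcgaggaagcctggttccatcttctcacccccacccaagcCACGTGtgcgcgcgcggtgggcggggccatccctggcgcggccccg
Mxd4: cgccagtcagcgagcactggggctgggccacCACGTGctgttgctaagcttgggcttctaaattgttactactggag
The promoters of Mxd3, Mxd1, Mga, Mycn and Mxi1 held no CACGTG in these windows. The promoter of Mxd3, the member with the largest change, was searched on both strands for GCGGGAA, a form of the site of E2F factors, which is present in 4.6% of all promoters and in 1 of the 11 member promoters. That stretch, at chr13:55329824-55329907 (minus), is shown with GCGGGAA in capitals.
Mxd3: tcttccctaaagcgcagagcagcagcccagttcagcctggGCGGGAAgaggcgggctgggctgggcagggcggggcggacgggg
These matches describe sequence and do not show that a factor was bound in these cells.

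GFP high libraries had less Mxd3 and more Max and Mga than GFP low libraries. Myc, Mxd1, Mnt and Mlx were higher in GFP high in each of 5 pairs, as were 22.9% of all genes tested. Mxi1 was lower in each of 5 pairs, as were 23.1% of all genes. None of Myc, Mxd1, Mnt, Mlx and Mxi1 passed in the fit without a block. Mxd3 fell by 1.19 on the log2 scale, while Max and Mga each rose by 0.37 (n = 5 libraries each, adjusted by Benjamini-Hochberg after edgeR's quasi-likelihood test, threshold 0.05). Of the 10 members, 3 therefore passed, against 27.5% of all 12772 genes tested (12.0% higher and 15.4% lower), so the share of members that changed was near that of all genes. The replicate numbers were taken to pair the libraries, which the labels do not state. A fit with the number as a block found 6 members higher and 1 lower, namely Myc, Mxd1, Mnt and Mlx in addition to Max, Mga and Mxd3. In that fit 41.8% of all genes passed, and 20.7% were higher. In replicates 4 and 5 alone 4 members were higher (Myc, Max, Mxd1 and Mnt), against 10.3% of all genes. Without a single library the number higher was 1 to 3, since the call of Mga was lost without GFP high library 1 or 4 or GFP low library 2 or 3, and Mxd1 was added without GFP high library 5. Mycn, Mxd4 and Mxi1 passed in neither fit. The median log2 fold change of the 10 members was 0.24, beside 0.03 over all genes tested. These are bulk libraries, in which fewer cells of a kind and less RNA per cell cannot be told apart.

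**Figure D1:**
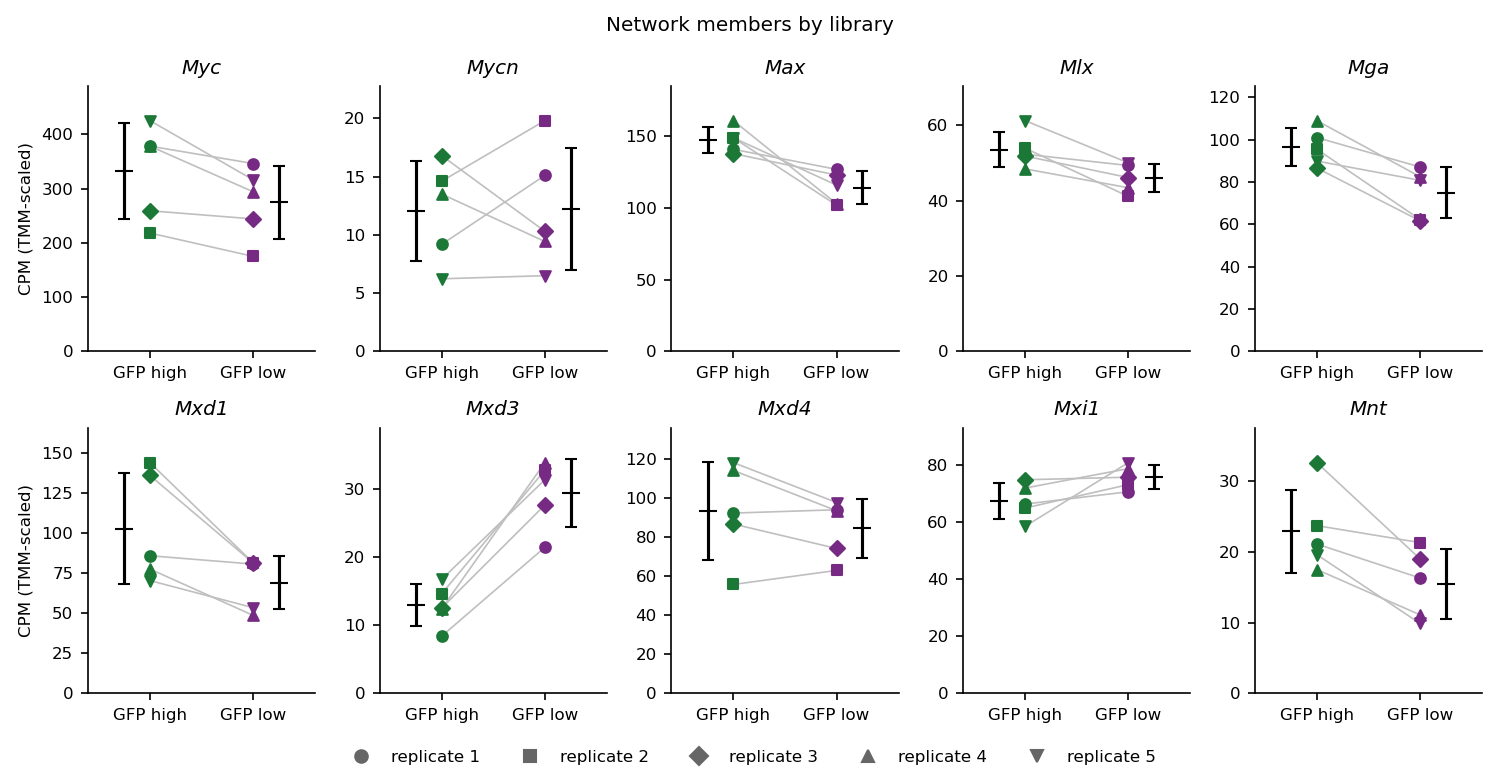
Levels of the 10 network members in each library, in CPM (counts scaled to library size) on a linear axis from 0, with GFP high in green and GFP low in purple. Grey lines join libraries of the same replicate number, marker shapes give the number, and black marks are the mean and SD of 5 libraries. Mxd3 and Max separate the groups without overlap, and Myc is higher in GFP high in all 5 pairs although its groups overlap.

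Myc (ENSMUSG00000022346, chromosome 15, 61985391 to 61990374 on mm10) encodes the MYC protein itself. Levels are given in CPM, counts scaled to the TMM-adjusted size of each library. Those of Myc were 378, 218, 259, 378 and 425 CPM in GFP high libraries 1 to 5 and 346, 175, 244, 294 and 316 CPM in GFP low libraries 1 to 5. The groups overlapped widely, since libraries numbered 2 and 3 were lowest in each group, yet GFP high was above GFP low within all 5 pairs. The differences within pairs 1 to 5 were 0.13, 0.32, 0.08, 0.37 and 0.43 on the log2 scale. Across the groups the means were 332 ± 88.6 and 275 ± 67.1 CPM (SD, n = 5 each), for a log2 fold change of 0.27 ± 0.21 (SE, edgeR adjusted p = 0.359). With the replicate block the value was 0.26 ± 0.06 (edgeR adjusted p = 0.00551), and it passed in each of 5 block fits that left out a pair, with the highest adjusted p at 0.0236. Leaving out GFP low library 2 moved the unblocked value to 0.15 and leaving out GFP high library 2 moved it to 0.41, and neither passed (edgeR adjusted p = 0.609 and 0.142). Being higher in 5 of 5 pairs was shared by 22.9% of all genes tested. It was 0.18 in replicates 1 to 3 alone (edgeR adjusted p = 0.631) and 0.38 in replicates 4 and 5 alone (edgeR adjusted p = 0.00724).

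Mycn (ENSMUSG00000037169, chromosome 12, 12936093 to 12941914), a MYC relative of embryonic and early progenitor cells, was expressed at a far lower level. It ranged from 6.23 to 16.8 CPM in GFP high and from 6.5 to 19.8 CPM in GFP low, and was higher in GFP high in 2 of 5 pairs. The within-pair differences were -0.71, -0.44, 0.71, 0.52 and -0.06, so the pairs went both ways. Its log2 fold change was -0.02 ± 0.32 (edgeR adjusted p = 0.974), and -0.16 to 0.24 with single libraries left out. The third MYC gene, Mycl, averaged 0.813 ± 0.452 CPM against 0.726 ± 0.686 in the GFP low libraries (SD, n = 5 each), not far above the floor of 3 counts per library (0.202 to 0.282 CPM, counting error only). Myc made up 94.8% to 98.8% of the summed Myc and Mycn level per length across the GFP high libraries and 91.5% to 98.3% across the others.

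Max (ENSMUSG00000059436, chromosome 12, 76937269 to 76962201), the shared partner of the MYC, MXD and MNT proteins, was higher in all GFP high libraries. It had 141, 149, 138, 161 and 149 CPM in the GFP high libraries, by replicate number, against 127, 102, 123, 103 and 116 CPM in their GFP low counterparts. The lowest GFP high library was above the highest GFP low library, as it was for 7.92% of all genes tested. The means were 148 ± 9.06 and 114 ± 11.6 CPM (SD, n = 5 each), for a log2 fold change of 0.37 ± 0.09 (SE, edgeR adjusted p = 0.00712). Max passed in each of 10 fits without a single library and, at 0.49, in replicates 4 and 5 alone (edgeR adjusted p = 0.00619). It was 0.31 in replicates 1 to 3 alone and did not pass there (edgeR adjusted p = 0.0649).

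Mga (ENSMUSG00000033943, chromosome 2, 119897228 to 119969581) encodes a very large MAX partner of a noncanonical Polycomb complex. Levels were 101, 95.5, 86.6, 109 and 89.9 CPM in the GFP high libraries, by replicate number, against 87.1, 62.3, 61.7, 82.5 and 80.8 CPM in their GFP low counterparts. GFP high was above GFP low in all 5 pairs, and the groups touched only at GFP high library 3 and GFP low library 1. The log2 fold change was 0.37 ± 0.12 (SE, edgeR adjusted p = 0.0333). This call was lost without GFP high library 1 (0.37, edgeR adjusted p = 0.0513), GFP high library 4 (0.33, 0.0691), GFP low library 2 (0.31, 0.0725) or GFP low library 3 (0.31, 0.0726). It was also lost in replicates 4 and 5 alone (0.27, edgeR adjusted p = 0.136).

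Mlx (ENSMUSG00000017801, chromosome 11, 101087277 to 101092207), the partner of MLXIP and MLXIPL, had 48.4 to 61.2 CPM in GFP high against 41.1 to 50 CPM in GFP low. It was higher in GFP high in all 5 pairs, by 0.08 to 0.39 on the log2 scale, while the ranges of the groups overlapped. The log2 fold change of 0.22 ± 0.09 did not pass (edgeR adjusted p = 0.107) and passed narrowly with the replicate block (edgeR adjusted p = 0.0491), in 1 of 5 block fits without a pair. Exons of Mlx share 385 bases with Psmc3ip on the opposite strand, which went the other way (-0.59, edgeR adjusted p = 0.00614), and without a stated strand setting reads there cannot be told apart. Of its partners, Mlxip was higher in all GFP high libraries, at 92.9 to 125 CPM against 60.6 to 82.2 CPM (log2 fold change 0.64 ± 0.11, edgeR adjusted p = 0.00111). Mlxipl had 1 count in a single GFP high library, 0.0729 CPM, and 0 counts in the others.

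Mxd3 (ENSMUSG00000021485, chromosome 13, 55325168 to 55329823), the MXD gene known from cycling cells, had the largest change of the network. It had 8.38, 14.6, 12.5, 12.4 and 16.7 CPM in GFP high libraries 1 to 5, from 115, 167, 178, 159 and 193 counts. GFP low libraries 1 to 5 had 21.4, 32.7, 27.6, 33.8 and 31.3 CPM, from 299, 462, 285, 430 and 462 counts. Every GFP low library was above every GFP high library, as for 12.6% of all genes tested, with library 1 the lowest in each group. The means were 12.9 ± 3.09 and 29.4 ± 5.0 CPM (SD, n = 5 each), for a log2 fold change of -1.19 ± 0.19 (SE, edgeR adjusted p = 0.000649). Within pairs 1 to 5 the differences were -1.36, -1.17, -1.14, -1.45 and -0.90, lower in GFP high each time, as for 23.1% of all genes. Mxd3 passed without any single library (log2 fold change -1.29 to -1.05) and, at -1.18, in either subset of replicates, numbers 1 to 3 or 4 and 5. The proliferation reference genes were also lower in GFP high, 10 of 10 against 15.4% of all genes, with a median of -1.14. Among them were Aurkb (-1.06), Ccnb1 (-1.34), Ccna2 (-1.25) and Mki67 (-1.19). The cells were sorted by division, so lower values of these genes in GFP high were built into the design. Their summed level was 1710 to 2330 CPM in GFP high against 3740 to 4790 CPM in GFP low, and the part of proliferation in the Mxd3 difference was not tested. Mxd3 shares 105 exon bases with Prelid1 on the opposite strand, and Prelid1 also fell (-0.62, edgeR adjusted p = 0.000526). Over all libraries Prelid1 had 23878 counts and Mxd3 had 2750. Without a stated strand setting reads in the shared bases cannot be told apart, and their part in the Mxd3 difference was not tested.

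Mxd1 (ENSMUSG00000001156, chromosome 6, 86647042 to 86669161), the MXD gene known from differentiating cells, had higher values in GFP high, the other direction from Mxd3. It had 85.9, 144, 136, 77.6 and 70.4 CPM in the GFP high libraries, by replicate number, against 80.7, 81.5, 81.4, 48.7 and 53.5 CPM in their GFP low counterparts. GFP high libraries 2 and 3 were well above the rest, and GFP high library 5 was below 3 of the GFP low libraries, so the groups overlapped. Within pairs 1 to 5 the differences were 0.09, 0.82, 0.74, 0.67 and 0.39, higher in GFP high each time. The log2 fold change was 0.57 ± 0.22 (SE, edgeR adjusted p = 0.0780) without the block and 0.54 ± 0.10 with the replicate block (edgeR adjusted p = 0.00083). It also passed within replicates 1 to 3 (0.61, edgeR adjusted p = 0.0307, where 23.3% of all genes passed) and within replicates 4 and 5 (0.52, 0.0114). Without GFP high library 5 it passed at 0.70 (edgeR adjusted p = 0.0356), and with DESeq2 at 0.58 (adjusted p = 0.0350), where 27.1% of all genes passed.

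Mnt (ENSMUSG00000000282, chromosome 11, 74830920 to 74845725), a broadly expressed MYC antagonist, was also higher in GFP high in every pair. Its levels were 21.1, 23.7, 32.6, 17.5 and 19.6 CPM in the GFP high libraries, by replicate number, against 16.3, 21.3, 19.0, 11.1 and 9.88 CPM in their GFP low counterparts. GFP high library 3 was highest, and GFP low library 2 was above 3 of the GFP high libraries. A log2 fold change of 0.56 ± 0.23 did not pass (edgeR adjusted p = 0.0944), and 0.59 ± 0.14 passed with the replicate block (edgeR adjusted p = 0.00542). Without GFP high library 3 the unblocked value was 0.40. It was 0.48 in replicates 1 to 3 alone (edgeR adjusted p = 0.118) and 0.81 in replicates 4 and 5 alone (edgeR adjusted p = 0.0207). In Y-linked counts both libraries numbered 3 differed from the others, with 9 and 2 against 309 to 2654, while for Mnt GFP low library 3 lay within its group.

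Mxi1 (ENSMUSG00000025025, chromosome 19, 53310518 to 53375810) and Mxd4 (ENSMUSG00000037235, chromosome 5, 34173883 to 34187720), the remaining MXD genes, did not pass in any fit that was run. Mxi1 had 58.5 to 74.8 CPM in GFP high against 70.6 to 80.8 CPM in GFP low, and was lower in GFP high in all 5 pairs by 0.02 to 0.47. Its log2 fold change was -0.17 ± 0.09 (edgeR adjusted p = 0.155, with the replicate block 0.0989). Mxd4 ranged from 55.7 to 118 CPM in GFP high and from 62.9 to 97.6 CPM in GFP low, with library 2 lowest in each group and 3 of 5 pairs higher in GFP high. The log2 fold change was 0.14 ± 0.19 (edgeR adjusted p = 0.61).

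**Figure D2:**
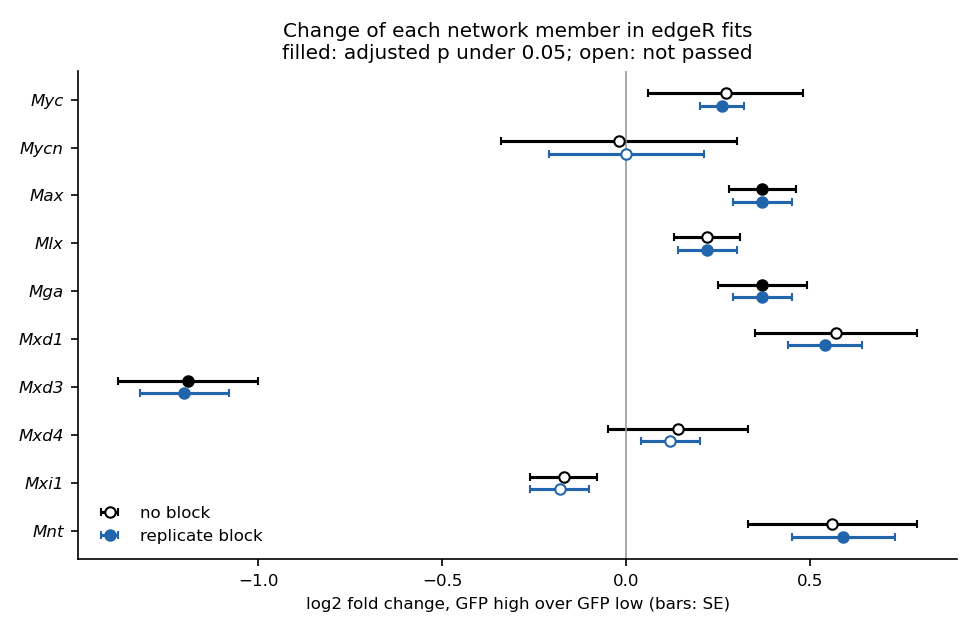
Log2 fold change of each member, GFP high over GFP low, with standard errors, in the edgeR fit without a block (black) and with the replicate number as a block (blue). Filled points passed at an adjusted p under 0.05; Max, Mga and Mxd3 are filled in both fits, and Myc, Mlx, Mxd1 and Mnt with the block alone.

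Levels were compared between genes per kilobase of exon (RPKM, from the union of annotated exons). In both groups Myc was highest, at 122 ± 32.6 RPKM in GFP high against 101 ± 24.7 in GFP low (SD, n = 5 each), followed by Max (41.1 ± 2.52 and 31.8 ± 3.22) and Mlx (26.8 ± 2.37 and 23.0 ± 1.90). The ranges of these 3 genes did not overlap within either group. The antagonists came after them. In GFP low, Mxd3 led them with 12.4 ± 2.11 RPKM, above Mxi1 (11.1 ± 0.603), Mxd4 (9.95 ± 1.78) and Mxd1 (9.78 ± 2.34), whose ranges overlapped from each gene to the next. This lead rests on the exon lengths used, 2369 bases for Mxd3 against 6823, 8483 and 7072 for Mxi1, Mxd4 and Mxd1. In mean CPM, Mxd3 was below all of them in GFP low, at 29.4 against 75.8, 84.4 and 69.2. In GFP high, Mxd1 led with 14.5 ± 4.87 RPKM, above Mxd4 (11.0 ± 2.94) and Mxi1 (9.86 ± 0.928), again with overlapping ranges. There Mxd3 was eighth of the 10 members at 5.45 ± 1.30 RPKM, its range overlapping those of Mga (6.29 ± 0.594) and Mnt (4.95 ± 1.27). Mycn was last in GFP high (3.66 ± 1.30 RPKM) and Mnt was last in GFP low (3.35 ± 1.07 RPKM), where its range overlapped that of Mycn (3.71 ± 1.59).

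Per length, the 5 antagonist genes together had nearly equal mean levels in the groups, but their makeup differed. Their summed level was 40.8, 47.6, 52.7, 43.9 and 43.7 RPKM in GFP high, by replicate number, against 45.4, 48.1, 47.1, 46.1 and 46.3 RPKM in their GFP low counterparts. The means were 45.7 ± 4.58 and 46.6 ± 1.03 RPKM (SD, n = 5 each), and the GFP high range enclosed the GFP low range. Within pairs the sum was higher in GFP high in 1 of 5. Mxd3 supplied 8.67% to 16.1% of that sum in GFP high but 19.9% to 31.0% in GFP low, ranges that did not overlap. Mxd1 supplied 22.8% to 42.6% in GFP high against 14.9% to 25.1% in GFP low, and was the larger share in GFP high in all 5 pairs. Mnt went from 7.18% ± 2.18 in GFP low to 10.7% ± 1.80 in GFP high, also larger in all 5 pairs. As a ratio of the pair, Mxd1 over Mxd3 was 1.41 to 3.65 among GFP high libraries but 0.482 to 1.26 among GFP low ones. These sums, shares and ratios describe chosen members and were not tested. They, and the ratios that follow, weight a read of Mxd3 (2369 exon bases) more than a read of Mxd1 (7072). Sums of the antagonists in CPM are not given here.

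Set against this sum, Myc and Mycn together were 1.78 to 3.62 times the antagonists in GFP high and 1.47 to 2.91 times in GFP low. On the log2 scale the ratio was 1.80, 0.83, 0.93, 1.71 and 1.86 in GFP high, by replicate number, against 1.54, 0.55, 0.98, 1.27 and 1.35 in their GFP low counterparts. GFP high was above GFP low in 4 of 5 pairs, with pair 3 the exception. The mean difference was 0.29, with an SD of 0.22 between pairs. With Mxd3, the antagonist with the largest fall, left out of the sum the difference was 0.02, so it depended on including Mxd3. Differences without each of the other antagonists are not given here. With Mxd3 included, the antagonist sums were 45.7 ± 4.58 RPKM in GFP high and 46.6 ± 1.03 in GFP low. Those of Myc and Mycn were 126 ± 31.5 and 105 ± 23.8 RPKM (SD, n = 5 each). Libraries numbered 2 and 3 had the lowest ratios in each group, and the SD among libraries, 0.503 in GFP high and 0.386 in GFP low, exceeded the difference between the groups. Myc over Mxd4 varied least, from 9.32 to 12.8 in GFP high and from 8.69 to 11.5 in GFP low. Myc over Mxd3 was 13.1 to 39.4 in GFP high against 4.68 to 14.1 in GFP low, and Myc over Mxd1 was 3.95 to 15.7 and 5.59 to 15.7. These are levels of transcripts, and the proteins, some of which are short-lived, were not measured.

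**Figure D3:**
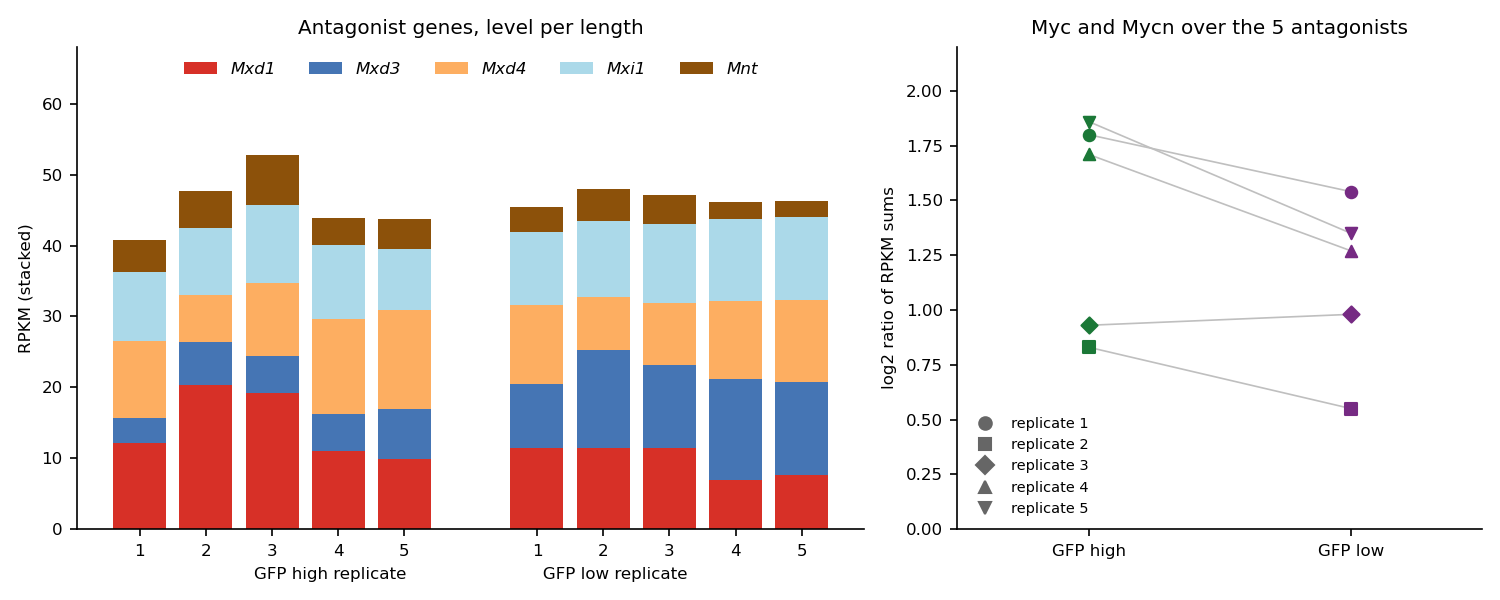
Left, summed level per length (RPKM, linear axis from 0) of the 5 antagonist genes in each library, with Mxd3 (blue) a larger part of the bar in the GFP low libraries and Mxd1 (red) in the GFP high libraries. Right, log2 ratio of the summed RPKM of Myc and Mycn over that of the 5 antagonists, with lines joining libraries of the same replicate number; 4 of 5 pairs are higher in GFP high.

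Many genes that MYC is known to activate fell in GFP high. Myc itself was above GFP low in all 5 pairs, as were 22.9% of all genes. It did not pass without the block (edgeR adjusted p = 0.359). In the list of metabolism and growth targets, 29 of 39 tested genes fell, 1 rose and 9 did not pass, with a median log2 fold change of -0.50 beside 0.03 over all genes. The genes that fell included Psat1 (-1.08, 98.4 ± 10.9 against 208 ± 21.4 CPM) of serine synthesis, Mthfd2 (-0.91) and Mthfd1 (-0.81) of one-carbon metabolism, and Ldha (-0.75) of glycolysis. Ahcy, which recycles S-adenosylhomocysteine, went from 36.9 ± 5.91 CPM in GFP low to 17.2 ± 3.19 in GFP high (SD, n = 5 each). Slc1a5, a glutamine transporter, was the gene that rose (0.79), and Odc1, the polyamine enzyme often used as a MYC target, lay at the threshold (-0.38 ± 0.13, edgeR adjusted p = 0.05, lower in 5 of 5 pairs), and passed with the replicate block (edgeR adjusted p = 0.00119) and without GFP low library 4 (-0.42, 0.0463) or 5 (-0.43, 0.0410). In the nucleolar list 8 of 30 fell, 1 rose and 21 did not pass, against 15.4% lower and 12.0% higher over all genes, with a median of -0.17. They included Npm1 (-0.65), a nucleolar histone chaperone, Pa2g4 (-0.65), a growth-regulated nucleolar protein, and Fbl (-0.65), which methylates ribosomal RNA, while Ppan rose (0.54).

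Of 16 targets in the cell cycle, 11 fell, 2 rose and 3 did not pass, with a median of -0.66. E2f2 (-1.32), Cdca7 (-1.03) and Ran (-0.91), which drives nuclear transport, had the lowest p-values. The cyclin gene Ccnd2 rose instead, with 422 to 926 CPM in GFP high against 73.6 to 264 CPM in GFP low (log2 fold change 1.95 ± 0.36, edgeR adjusted p = 0.00189), as did Id2 (1.43). The proliferation reference given beside Mxd3 moved with these lists, and its part in them was not tested. With the replicate block the metabolism, nucleolar and cell cycle lists had 32, 11 and 11 genes lower and 1, 1 and 4 higher, where 2688 of all 12772 genes were lower and 20.7% were higher. In the list of genes that MYC is known to repress, 14 of 18 were tested. Of these 0 rose by edgeR without the block (1 at an unadjusted p under 0.05, and 0 by DESeq2), beside 12.0% of all genes. The 2 that fell, a share near the 15.4% of all genes, were Cdkn2c (-0.44, edgeR adjusted p = 0.00713) and Gas2 (-0.66, edgeR adjusted p = 0.0292). Gas2 did not pass without GFP high library 2 or 3 or any of GFP low libraries 2 to 5 (-0.65 to -0.60). Cdkn1b, the p27 gene, had 0.31 ± 0.19 (edgeR adjusted p = 0.247) and Cdkn1c -1.69 ± 0.68 (0.0811). With the block 4 rose and 5 fell in that list.

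**Figure D4:**
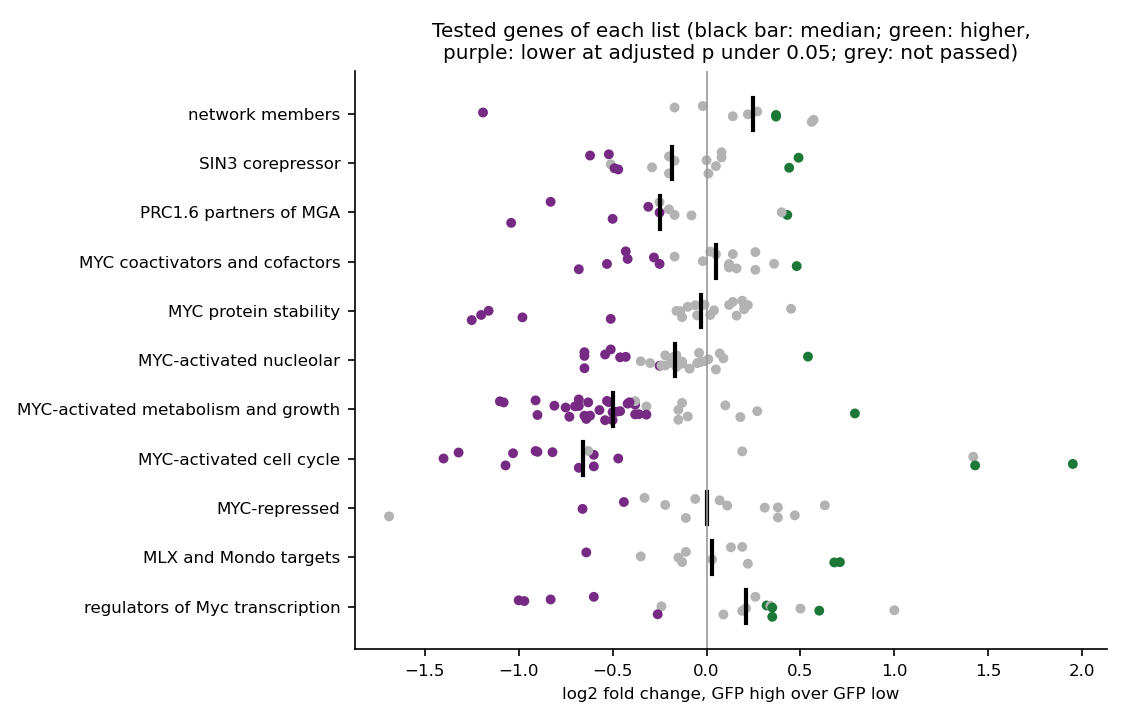
Log2 fold change, GFP high over GFP low, of each tested gene in 11 lists, the members first, with a black bar at the list median. Green points were higher and purple points lower at an edgeR adjusted p under 0.05, and grey points did not pass; the MYC-activated metabolism and cell cycle lists have medians of -0.50 and -0.66, and the network members a median of 0.24.

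Of 11 tested targets of MLX with its Mondo partners, 2 rose, 1 fell and 8 did not pass (3 and 2 with the replicate block), near the 12.0% higher and 15.4% lower over all genes. Txnip, which restrains glucose uptake and is a well-known MondoA target, had 587 to 853 CPM in GFP high against 381 to 541 CPM in GFP low (log2 fold change 0.71 ± 0.12, edgeR adjusted p = 0.0012), with no overlap. Its relative Arrdc2 rose by 0.68, and Scd2, a fatty acid desaturase, fell by 0.64. The call of Scd2 was lost without GFP high library 1 (-0.57, edgeR adjusted p = 0.0607) or 2 (-0.62, 0.0523), or GFP low library 4 (-0.56, 0.0571) or 5 (-0.53, 0.0569). The list median was 0.03, the same as over all genes.

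Among 16 genes of the SIN3 corepressor, which MXD and MNT recruit, 2 rose, 4 fell and 10 did not pass, against 12.0% higher and 15.4% lower over all genes. The block fit had 2 higher and 6 lower. Those that fell were the histone deacetylase genes Hdac1 (-0.47) and Hdac2 (-0.52) and the histone-binding genes Rbbp4 (-0.49) and Rbbp7 (-0.62), and those that rose were Arid4a (0.44) and Arid4b (0.49). Hdac1 did not pass without GFP high library 1 (-0.43, edgeR adjusted p = 0.0515). Arid4b passed in 3 of 10 fits, those without GFP high library 4 or 5 or GFP low library 1, and had 0.40 to 0.54 in the other 7. The scaffold genes Sin3a (0.05, edgeR adjusted p = 0.792) and Sin3b (0.08, 0.540) did not pass. In the Polycomb complex of MGA, 5 of 11 fell, 1 rose and 5 did not pass (7 and 2 with the replicate block), mostly the opposite direction from Mga. Tfdp1, the E2F partner, had the largest fall (-1.04), followed by the chromodomain genes Cbx3 (-0.83) and Cbx1 (-0.50), while Ring1 rose (0.43). E2f6 (-0.31) and Wdr5 (-0.25) made up the 5, and only 3 genes fell without GFP high library 1, 3 or 5 or GFP low library 3, 4 or 5. Among the genes of this complex that did not pass were L3mbtl2 (-0.08, edgeR adjusted p = 0.625) and Pcgf6 (-0.20, 0.312).

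Among MYC cofactors 1 gene rose, 6 fell and 12 did not pass of 19, against 12.0% higher and 15.4% lower over all genes. In the block fit 4 were higher and 6 lower. Among the genes that fell without the block were Wdr5 (-0.25), also counted in the Polycomb list, and Smarcb1 (-0.28). Each of these passed in 3 of 10 fits without a single library. The chromatin remodelling subunit genes Actl6a (-0.68) and Ruvbl2 (-0.42) and the cofactor gene Hcfc1 (-0.53) fell, and Ccnt2 rose (0.48), a call lost without GFP high library 3 (0.41, edgeR adjusted p = 0.0593) or GFP low library 4 (0.44, 0.0555) or 5 (0.43, 0.0540). Of 22 genes that control the stability of MYC protein, 5 fell and 17 did not pass, beside 15.4% lower over all genes. By edgeR without the block 0 rose (1 at an unadjusted p under 0.05, and 0 by DESeq2), and the median was -0.03. The block fit had 5 lower and 1 higher, the kinase gene Pim1 (0.51 ± 0.10, edgeR adjusted p = 0.00136, against 0.398 without the block). Those that fell were the ubiquitin ligase subunit Skp2 (-1.16), the kinases Plk1 (-1.25) and Aurka (-0.98), Cip2a (-1.20) and Set (-0.51), of which Plk1 and Aurka are also mitotic genes. Fbxw7, the ligase best known for degrading MYC, had 0.19 (edgeR adjusted p = 0.402). Among factors known to regulate Myc transcription 4 rose, 5 fell and 8 did not pass of 17, against 12.0% higher and 15.4% lower over all genes, and in the block fit 8 were higher and 4 lower. Foxo1 (0.60), Stat5b (0.35), Myb (0.35) and Lef1 (0.32) rose, and Pvt1, Mybl2 (-0.97), Ikzf3 (-0.83), E2f1 (-0.60) and Ctcf (-0.26) fell. The calls of Lef1 and Myb held in 6 and 3 of 10 fits without a single library, and those of Ikzf3 and Ctcf in 1 each. Pvt1, a long noncoding RNA gene next to Myc on chromosome 15 and named after its values were seen, had 4.62 to 9.84 CPM in GFP high against 8.39 to 17.1 CPM in GFP low. It fell by 1.0 ± 0.25 (edgeR adjusted p = 0.0101) and was lower in 5 of 5 pairs, as were 23.1% of all genes, the opposite direction from Myc in each pair. In replicates 4 and 5 alone Pvt1 did not pass (-0.53, edgeR adjusted p = 0.242).

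The genes most like a member over the 10 libraries were ranked by Pearson's r of log2 CPM, as a description in which libraries share group and pair. Myc was most like Fos (r = 0.966), an immediate early gene, then Tmem173 (0.953) and Lamb3 (0.953). With group means removed the values were 0.963, 0.972 and 0.949, so the likeness lay within the groups. Fos had 1180, 235, 278, 1120 and 1170 CPM in the GFP high libraries, by replicate number, against 807, 164, 214, 550 and 721 CPM in their GFP low counterparts, again lowest in the libraries numbered 2 and 3. Its log2 fold change was 0.69 ± 0.53 (edgeR adjusted p = 0.362), and it passed with the replicate block (edgeR adjusted p = 3.92e-05). Mxd3 was most like Mospd3 (r = 0.985, 0.917 with group means removed), Clpb (0.984 and 0.910) and Espl1, the separase gene (0.974 and 0.900). Max was most like Tgoln1 (0.974), E430021H15Rik (0.963) and Macrod1 (0.952), and Mga was most like Ssh1 (0.975), Slfn5 (0.968) and Tmem255a (0.963).

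Markers were read for the cells the gate could hold. All 15 markers of B-cell progenitors were detected. Their summed level was 15900 to 18300 CPM in GFP high against 12800 to 14100 in GFP low. Of the 15, 5 rose, where 12.0% of all genes tested were higher and 15.4% lower. With the replicate block 12 of the 15 rose and 1 fell. In that fit 20.7% of all genes were higher and 2688 of 12772 were lower. These shares also apply to the marker counts that follow. Plasma cell markers summed to 652 to 1120 and 539 to 841 CPM (2 higher and 1, Jchain, lower, of 6 tested), and mature B-cell markers to 871 to 1420 and 773 to 1120 CPM (2 higher of 6 tested). Monocyte and macrophage markers summed to 81.3 to 123 and 45.7 to 87.6 CPM (1 higher of 4), and plasmacytoid dendritic cell markers to 368 to 438 and 317 to 384 CPM (2 higher of 4, Klk1 at 0). The NK sum of 187 to 329 and 63.5 to 166 CPM came nearly all from Klrb1c (1 higher of 2 tested), with Gzma and Eomes at 0. T-cell markers summed to 2.19 to 5.80 and 3.01 to 11.4 CPM (1 lower of 2, Cd8a at 0), neutrophil markers to 3.58 to 9.99 and 3.58 to 6.5 CPM (0 of 3 passed by DESeq2 or by edgeR without the block, 1 at an unadjusted p under 0.05) and erythroid markers to 16.6 to 46.8 and 7.84 to 22.4 CPM (1 higher of 4). With the block the numbers higher were 4 for plasma cell (1 lower), 3 for mature B-cell, 3 for monocyte and macrophage, 2 for erythroid and 1 for neutrophil markers (S100a9), and the other marker counts stayed as given. The part of these cells in the member values was not tested.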

How the data were processed

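Raw read counts per Ensembl gene, whole numbers without normalization, were deposited for 10 libraries. Per the labels' protocols, polyadenylated RNA was amplified with a low-input kit, and per the submitters' processing notes mm10, STAR, featureCounts and DESeq2 were used, with no version or setting. The handling of strand and of multiply mapped reads was not given in the sources used here. GENCODE M21 (GRCm38, the build mm10) gave symbols, positions and exon lengths to 99.833% of identifiers. Totals were 10640894 to 14858520 counts per library. The lowest chi-square per gene between replicates was 7.19, so no library was counted as a repeat.

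Counts were tested with edgeR 4.0.16 (R 4.3.3): filterByExpr, TMM scaling, glmQLFit and glmQLFTest without covariates, Benjamini-Hochberg adjustment over 12772 genes and a threshold of 0.05. The procedure was tested on simulated data. CPM and RPKM use TMM-scaled library sizes. Log2 CPM for likeness used a prior count of 1. Same-numbered libraries of the 2 groups deviated together from their group means (correlations 0.229 to 0.331 in all 5 pairs, against -0.284 to 0.296 for other combinations), so the numbers were taken to pair them. GFP high library 5 with GFP low library 4 had 0.296, and GFP high library 4 with GFP low library 5 had 0.263. For numbers 4 and 5, a pair and a shared set of libraries are therefore hard to tell apart. DESeq2 1.42.0, median-ratio scaling, no filter, the replicate block, subsets of replicates and leaving out libraries were alternatives. Block fits without a pair and the GCGGGAA search were added after the data were seen. The members and gene lists were chosen with earlier results of these data known. Named genes were the members, 3 tested genes with the lowest p in each list other than markers, the 3 genes most like Myc and each member past the threshold, and Mycl, Mlxip, Mlxipl, Txnip, Odc1, Ccnd2, Cdkn1b and Mki67. Any other gene was named with its values known. Sequences of the member proteins were not analysed here.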

Additional observations from a re-analysis of the deposited data

Results flagged for a closer look

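Among the named genes and 3 summed or ratio measures, single libraries far from the other 4 of their group were searched for by Dixon's criterion for 5 values (0.71), in 105 groups of values, of which chance flags about 1 in 20. Tfdp1, the E2F partner in the Polycomb complex of MGA, had 322 CPM in GFP low library 1, where the other 4 GFP low libraries had 375 to 386 CPM. Mlxipl had 0.0729 CPM in GFP high library 1, a single count, and 0 in the other 4. None of the 10 members had a library that stood apart in this way in either group.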

How the results depend on the processing

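Over 49 named genes and up to 21 alternatives each, 14 of 1026 recomputed log2 fold changes had the opposite sign, all of them of Mycn or Mycl. Mycn (-0.02) was 0.00 without a filter, 0.30 in replicates 4 and 5 alone, -0.16 to 0.24 with single libraries left out and -0.18 to 0.20 (0.12 without pair 2, 0.02 without pair 5) in block fits without a pair. Mycl (0.18) was -0.11 in replicates 1 to 3 alone, -0.14 to 0.70 with single libraries left out and -0.02 to 0.70 in block fits without a pair. The number of members higher in GFP high was 2, against 6 with the replicate block, 4 in replicates 4 and 5 alone, 1 to 3 with single libraries left out and 5 to 6 in block fits without a pair. Over all genes 1538 were higher, 2645 with the replicate block, 1189 to 1479 with single libraries left out and 2164 to 2526 in block fits without a pair (2511 without pair 5). Over the other lists 15 distinct genes were higher, 31 with the replicate block, 24 in replicates 4 and 5 alone, 11 to 17 with single libraries left out and 32, 29, 28, 26 and 30 in block fits without pairs 1 to 5. The difference in the log2 ratio of Myc and Mycn to the antagonists (0.29) was 0.02 without Mxd3 and 0.14 to 0.43 with single libraries left out. The cause of these shifts was not tested. The low counts of Mycl and Mlxipl limit what their values can show.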
